A study of Mesocricetus auratus with 6 samples.

Results

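The growth hormone and prolactin axis was followed through 10 genes of 31593 in the deposited tables of RNA from Syrian hamsters. The 10 genes were *Ghr*, *Prlr*, *Igf1*, *Igfals*, *Igfbp1*, *Igfbp2*, *Socs2*, *Cish*, *Stat5b* and *A1bg*, chosen by name with the liver differences between genotypes in these libraries already known, and all 10 were present. The study compared *duper* hamsters, which carry a frameshift in the clock gene *Cry1*, with wild-type animals, both of the Lakeview ecotype, LVG. All were raised in a 14:10 light:dark cycle and sampled at CT15, in the early subjective night, and their ages are not given in the labels. Each of the 6 deposited sets of values stands for 4 hamsters of a genotype. In cortex and in the suprachiasmatic nucleus (SCN) their material was mixed into 1 library, and in liver the reads of 4 separate libraries were merged. The 4 *duper* hamsters were females, whereas the wild-type group held 2 females and 2 males, so within these pools genotype and sex cannot be told apart for any value below. Since there was 1 set of values per genotype and tissue, a difference between genotypes within a tissue had no replicate and no test.

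Growth hormone and prolactin are secreted by the pituitary and act on the liver through related receptors, GHR and PRLR. Both receptors signal through the kinase JAK2 and the transcription factor STAT5. STAT5B induces the circulating growth factor IGF-1, its carrier subunit ALS (*Igfals*), and the feedback inhibitors SOCS2 and CISH. In rodent liver the temporal pattern of growth hormone secretion differs between the sexes, and *Prlr* and *A1bg* are known as genes whose hepatic transcripts are more abundant in females.

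The total of the estimated counts ranged from 6788947 in the wild-type cortex to 85748562 in the *duper* liver. *Cry1* was lower in *duper* in each tissue, with log2 ratios of −1.84 in cortex, −1.39 in SCN and −1.46 in liver. Levels are given as TPM, a measure scaled for transcript length that adds up to the same total in every library. The log2 ratio is that of *duper* over wild type after adding 1 TPM, which understates differences of low genes, and its 95% interval (exact Clopper-Pearson) refers to the ratio without that addition and covers counting error only. The liver libraries held the hepatocyte transcripts that define the tissue, all 12 detected markers of that list lying within a log2 ratio of 0.58 in either direction, with *Alb* at 107273 TPM in the wild-type and 112117 TPM in the *duper* library. The neuronal list summed to 1.34 and 1.39 TPM in the liver libraries, against 2594 to 6583 TPM in the cortex and SCN libraries.

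Of the receptors, *Prlr* stood out in liver. *Prlr*, the prolactin receptor, had 9.78 TPM in the wild-type liver and 72.0 TPM in the *duper* liver, from 1383 and 12296 estimated counts, a 7.36-fold difference. Its log2 ratio of 2.76 (95% interval 2.80 to 2.96) was matched or exceeded by 25 of 14054 liver genes whose mean reached 1 TPM, itself included. In cortex *Prlr* had 2.91 TPM in the wild-type and 5.82 TPM in the *duper* library, and in SCN 14.6 and 11.8 TPM. The wild-type liver therefore lay below both SCN libraries and the *duper* liver above all others. The cortex ratio was 0.80 (95% interval 0.64 to 1.38) and the SCN ratio was −0.29 (95% interval −0.47 to −0.16).

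*Ghr*, the growth hormone receptor, had 183.6 TPM in the wild-type liver and 147.3 TPM in the *duper* liver, and its log2 ratio was −0.32 (95% interval −0.34 to −0.29). The median log2 ratio of all 14054 liver genes was −0.10, so the centre of the comparison was itself below 0. In the cortex *Ghr* had 14.4 TPM in the wild-type and 20.7 TPM in the *duper* library, and in the SCN 17.8 and 14.6 TPM. The 2 liver libraries were thus above the 4 brain libraries for *Ghr*, with no overlap, whichever genotype was taken.

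**Figure D1:**
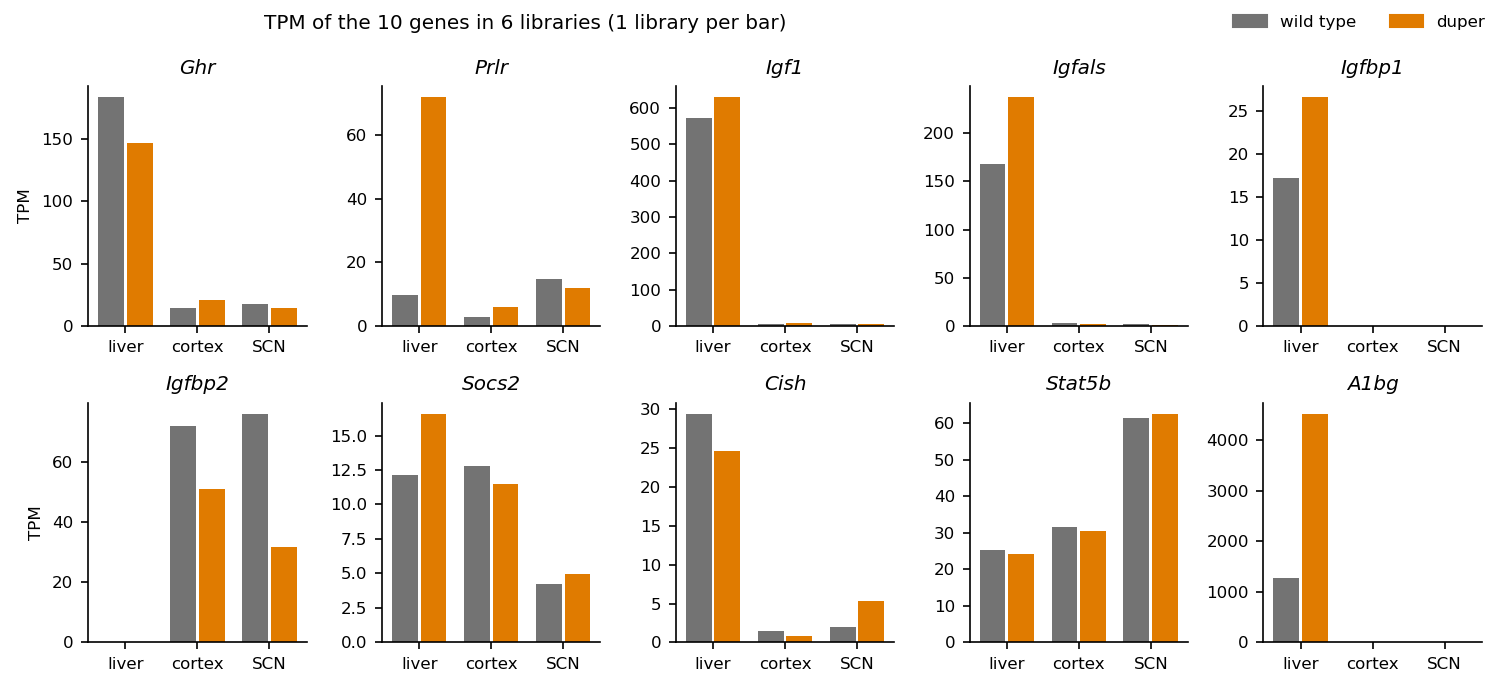
Levels in TPM (vertical axes, from 0) of the 10 genes in 6 libraries, with wild type in grey and *duper* in orange and 1 library per bar. *Prlr* and *A1bg* are far higher in the *duper* liver, at 72.0 and 4516 TPM, whereas *Igfbp2* has bars in cortex and SCN alone.

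The transcripts of *Prlr* differed between liver and brain. The deposited tables hold 9 *Prlr* transcripts, 2 of them of 2454 and 2456 bases and 7 of 5206 to 10001 bases, a division made after the values were seen. The short pair took 85.2% of *Prlr* TPM in the liver of wild type and 85.8% in that of *duper*. In cortex it took 0% in wild type and 3.02% in *duper*, and in SCN 0.356% and 0%. Per length, the liver libraries therefore held mostly the short *Prlr* transcripts and the brain libraries the long ones. The counts of *Prlr* and of its single transcripts were not all whole numbers, so part of this division is by estimate. Counted as reads rather than per length, the short pair took 57.7% and 59.9% in liver. Which receptor protein each of these transcripts encodes was not analysed here.

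Both length classes of *Prlr* were higher in the *duper* liver, and by like amounts. The short pair went from 8.33 to 61.7 TPM, a 7.41-fold difference, and the long transcripts from 1.45 to 10.2 TPM, a 7.05-fold difference. The counting intervals of their log2 ratios, 2.784 to 2.997 and 2.69 to 2.94, overlapped, but do not cover the error of dividing counts between transcripts. The transcript of 2454 bases alone had 8.21 TPM in the wild-type liver and 58.6 TPM in the *duper* liver.

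**Figure D2:**
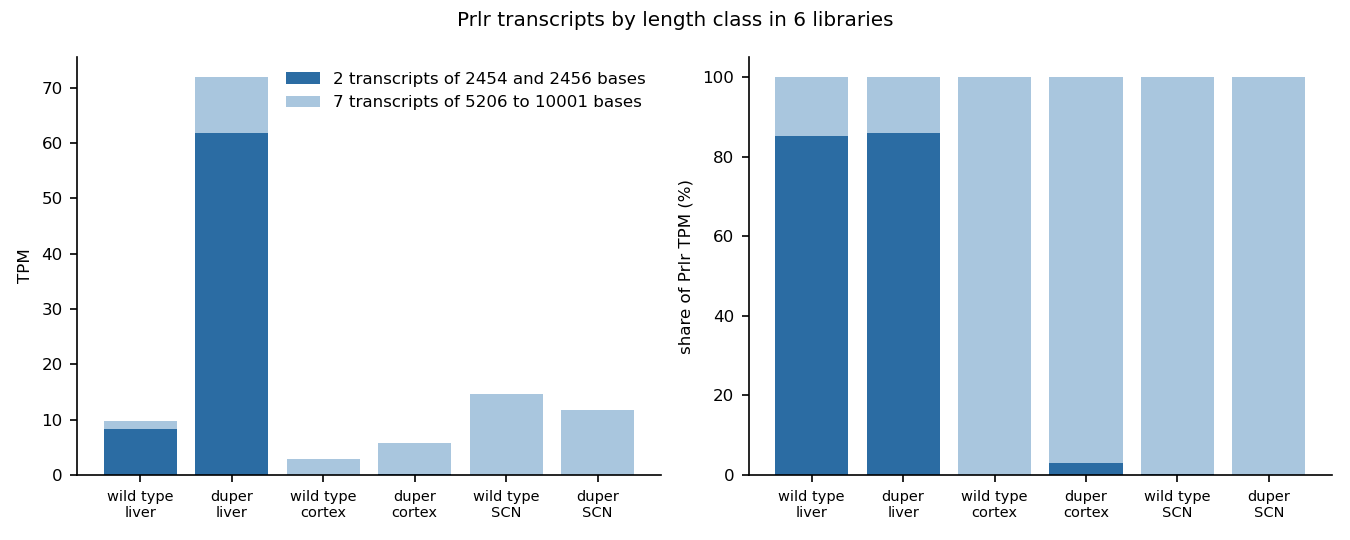
*Prlr* TPM (left, from 0) and share of *Prlr* TPM in % (right) in each of 6 libraries, divided into 2 transcripts of 2454 and 2456 bases (dark) and 7 of 5206 to 10001 bases (light). The dark part makes up 85.2% and 85.8% of the liver bars and at most 3.02% of any cortex or SCN bar.

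*Ghr* is listed with 3 transcripts, of which those of 4172 and 3910 bases held nearly all of its TPM. The transcript of 4172 bases took 48.8% in the liver of wild type and 41.3% in that of *duper*. In cortex and SCN its share ran from 30.9% to 81.2%, from at most 1069 counts for the whole gene, with no order shared by the genotypes.

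Downstream of the receptors, *Stat5b*, which encodes the transcription factor activated by both, differed little between genotypes. It had 25.2 TPM in the wild-type liver and 24.2 TPM in the *duper* liver, a log2 ratio of −0.06 (95% interval −0.12 to −0.01). With TMM scaling, which centres the median of all liver genes, the ratio was 0.05 or 0.07, so its sign was not fixed. *Stat5b* had 31.7 and 30.6 TPM in the wild-type and *duper* cortex and 61.4 and 62.6 TPM in the SCN. Per length, *Stat5b* was thus most abundant in the SCN libraries, then in cortex, then in liver, in both genotypes. Its transcript of 4974 bases took 34.9% and 29.9% of *Stat5b* TPM in the wild-type and *duper* liver, against at most 16.1% in any brain library. *Stat5b* counts were not whole numbers, as Kallisto gives when reads are shared with other transcripts, so part of them is assigned by estimate.

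The feedback inhibitors *Cish* and *Socs2*, both targets of STAT5, lay on opposite sides of 0 in liver. *Cish* had 29.4 TPM in the wild-type liver and 24.6 TPM in the *duper* liver, a log2 ratio of −0.25 (95% interval −0.33 to −0.18). *Socs2* had 12.2 and 16.6 TPM, giving a log2 ratio of 0.42 (95% interval 0.34 to 0.55). Neither passed 0.58. In the brain libraries *Cish* rested on 9 to 71 counts, with 1.48 and 0.862 TPM in the wild-type and *duper* cortex and 1.96 and 5.35 TPM in the SCN. *Socs2* had 12.8 and 11.5 TPM in the wild-type and *duper* cortex, close to its liver levels, and 4.23 and 4.98 TPM in the SCN.

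*Igf1*, which encodes the main circulating mediator of growth hormone, had 574 TPM in the wild-type liver and 630 TPM in the *duper* liver. Its log2 ratio was 0.13 (95% interval 0.11 to 0.16). The cortex and SCN libraries held 3.95 to 7.67 TPM of *Igf1*, from 12 to 80 counts, and the intervals of both brain ratios included 0. The transcript of 1442 bases was level in liver, at 235.9 and 236.0 TPM. That of 1687 bases was lower in *duper*, at 125.5 TPM in the wild-type and 114.5 TPM in the *duper* liver. The transcript of 520 bases, whose few counts weigh most in TPM because it is short, had 180 TPM in the wild-type and 245 TPM in the *duper* library. Of the *Igf1* counts in liver, it took 9.63% and 13.0%.

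*Igfals*, the subunit that holds IGF-1 and its binding protein in a stable complex in blood, had 168 TPM in the wild-type liver and 237 TPM in the *duper* liver. The log2 ratio of *Igfals* was 0.49 (95% interval 0.46 to 0.52), just short of 0.58, and it passed that fold with TMM scaling, at 0.61 or 0.63. In cortex and SCN it had 0.817 to 2.90 TPM from 6 to 63 counts.

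The binding proteins divided by tissue. *Igfbp1*, an acutely regulated IGF binding protein of liver, had 17.2 TPM in the wild-type liver and 26.6 TPM in the *duper* liver, a log2 ratio of 0.60 (95% interval 0.51 to 0.75). It was listed at 0 counts in each of the 4 brain libraries, where 3 counts would stand for 0.161 to 0.808 TPM, and the liver levels were at least 21.3-fold higher than the highest of these floors. *Igfbp2*, another IGF binding protein, was the reverse. It was listed at 0 counts in both liver libraries, where 3 counts would stand for 0.0629 TPM in the wild-type and 0.0506 TPM in the *duper* library. In cortex it had 71.8 TPM in the wild-type and 51.0 TPM in the *duper* library, and in SCN 75.9 and 31.7 TPM. The brain levels of *Igfbp2* were at least 504-fold higher than the liver floor of 3 counts per library.

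The SCN ratio of *Igfbp2* was −1.23 (95% interval −1.529 to −1.001) and its cortex ratio was −0.48 (95% interval −0.75 to −0.24). *Igfbp2* is also a transcript of meninges. Beside 7.7% of all 18305 SCN genes, the other 8 meningeal and perivascular genes listed besides *Igf2* were all lower past 0.58 in the *duper* SCN. Their median log2 ratio was −1.21. Their summed level was 370 TPM in the wild-type SCN and 149 TPM in the *duper* SCN, against 87.6 and 78.6 TPM in cortex. In bulk tissue, fewer cells of a type and less RNA per cell cannot be told apart. Choroid plexus, a site of *Prlr* and *Igf2* transcripts, was represented by 7 further genes, 6 of them with a mean of at least 1 TPM in SCN. Of these 6, 3 were lower past 0.58 in the *duper* SCN, beside 7.7% of all SCN genes. The sum of the 7 genes was 202 TPM in the wild-type SCN and 52.3 TPM in the *duper* SCN. Most of that sum was *Ttr*, with 165 and 24.1 TPM, and *Clic6*, *Slc4a5* and *Kl* had SCN log2 ratios of 0.48, 0.12 and 0.02. The part of either tissue in the SCN ratios of *Igfbp2* and *Prlr* was not tested.

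*A1bg*, which encodes a plasma glycoprotein of the immunoglobulin superfamily, was the most abundant of the 10 in liver. It had 1277 TPM in the wild-type liver and 4516 TPM in the *duper* liver, from 78850 and 346800 counts, a 3.54-fold difference. Its log2 ratio of 1.82 (95% interval 1.81 to 1.83) was matched or exceeded by 86 of 14054 liver genes. In cortex and SCN *A1bg* had 0.615 to 2.42 TPM from 7 to 14 counts, and both intervals included 0. *A1bg* is listed with a single transcript, and its counts were whole (within 0.001) in every library, as they were for 8 of the 10 genes, *Prlr* and *Stat5b* being the exceptions.

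**Figure D3:**
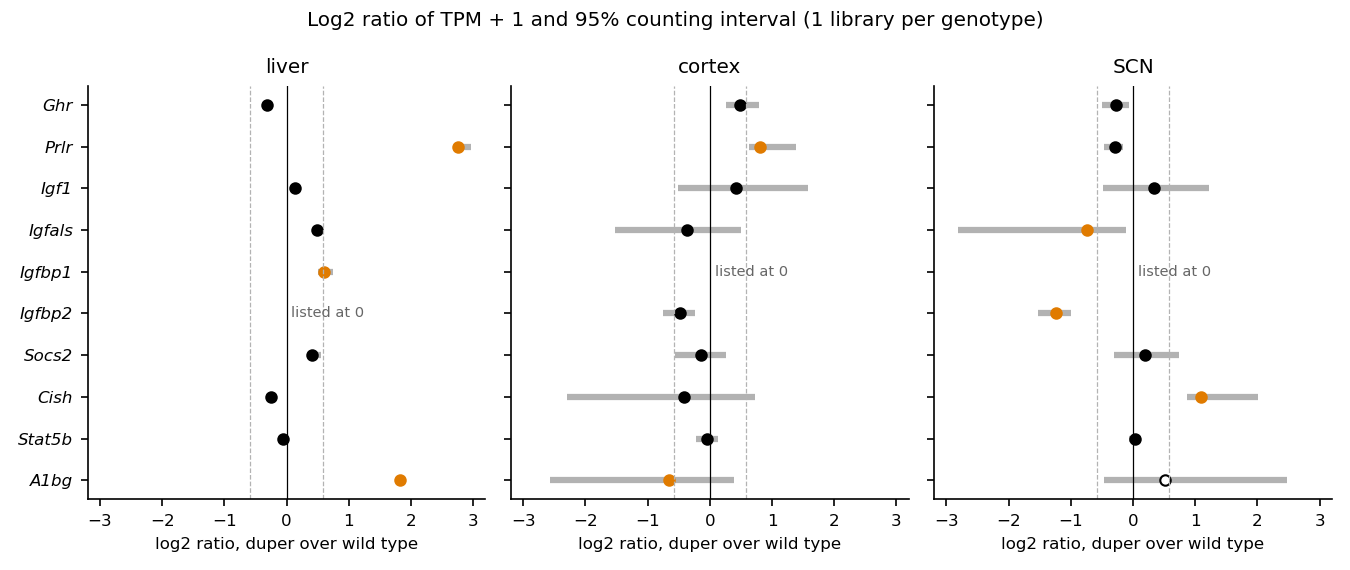
Log2 ratio of *duper* over wild type (horizontal axis) of TPM + 1 for the 10 genes in liver, cortex and SCN, with 1 library per genotype. Grey bars are 95% counting intervals, dashed lines mark 0.58 in either direction, orange points lie past them and the open point has a mean under 1 TPM. In liver 3 points lie past the upper line and none past the lower.

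In liver 9 of the 10 genes had a mean of at least 1 TPM, the exception being *Igfbp2*. Of these, *Prlr*, *A1bg* and *Igfbp1* were higher in *duper* past 0.58 and 0 were lower, beside 4.75% of all 14054 liver genes higher and 10.5% lower. With TMM-normalized CPM, which shifted the median of all genes by 0.12, these shares were 5.50% and 5.97%, and *Igfals* was the fourth higher gene. Because the genes were chosen on these liver values, nothing is read from that count. *Igfbp1* at 0.60 was just past the fold, with a counting interval (0.51 to 0.75) that spans it, and *Igfals* at 0.49 fell just short. The median log2 ratio of the 9 genes was 0.42. In the cortex *Prlr* was higher and *A1bg* lower past 0.58 among 9 genes, beside 8.24% and 7.75% of all genes. In the SCN *Cish* was higher and *Igfals* and *Igfbp2* lower among 8 genes, beside 6.67% and 7.7% of all genes.

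**Figure D4:**
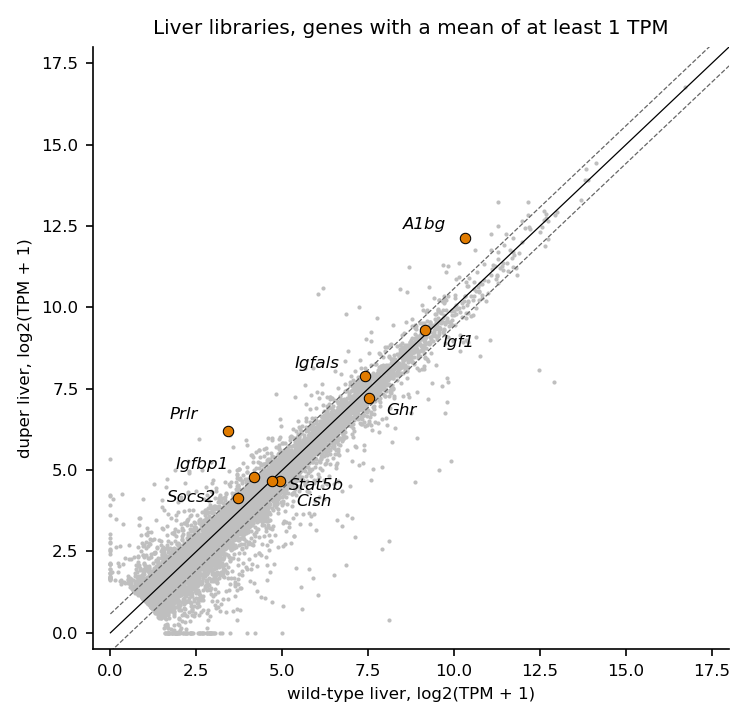
Each grey point is 1 of 14054 genes in the liver libraries, by log2(TPM + 1) in wild type (horizontal) and *duper* (vertical). The solid line marks equal levels and the dashed lines a log2 ratio of 0.58 either way, and orange points mark the 9 genes of the axis found there. *Prlr* and *A1bg* lie well above the upper line, and *Ghr*, *Igf1*, *Cish* and *Stat5b* lie between the lines.

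To ask whether the genes differed between genotypes across tissues, counts were fitted with tissue and genotype as terms, the model of the study, so that 3 tissues of the same hamsters stood in for replicates. In the quasi-likelihood test of edgeR, adjusted by Benjamini-Hochberg over 18275 genes, 0 of the 9 genes with enough counts were called with the cut-offs of the study (0.05 for the adjusted p, 0.58 for the size of the log2 fold change), beside 0.00547% of all genes. The tenth, *Igfbp1*, was removed by the count filter because it had counts in the liver libraries alone, 868 in wild type and 1668 in *duper*. An unadjusted p under 0.05 was found for 2 of the 9, beside 606 of all 18275 genes, and for 1 of the 9 with DESeq2. The fit contains the liver libraries on which the genes were chosen, so its values are a description and nothing is read from that count. The adjusted p was 0.998 for each of the 9 in the same edgeR test. DESeq2 and the 7 other settings also called 0 of them, with adjusted p-values from 0.124 upwards.

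The log2 fold changes across tissues depended on the libraries and the tool. That of *Prlr* was 1.20 (standard error 0.61), and it was 0.13 without the liver libraries and 2.01 without the SCN libraries. *Igfbp2* was at −0.89 (standard error 0.25), −1.32 without the cortex libraries and −0.49 without the SCN libraries, and its liver libraries, both at 0, carry no information on genotype. *A1bg* was at 1.51 (standard error 0.50) in edgeR's quasi-likelihood fit, 0.95 in its likelihood ratio fit, 0.78 in DESeq2 and 0.56 in limma on log2(TPM + 1). *Igfals* had no fixed sign, at 0.19 in the quasi-likelihood fit, −0.10 in the likelihood ratio fit, −0.16 in DESeq2, −0.21 in limma and −0.89 without the liver libraries.

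The same fit gave the difference between liver and the mean of cortex and SCN, a comparison that did not choose the genes, although they were named as liver genes. Of the 9 genes tested, 8 were called higher in liver and *Igfbp2* lower, beside 33.3% of all genes called higher and 34.1% called lower, 67.4% in either direction. *Igf1* was higher by 8.36 on the log2 scale (standard error 0.19), *Igfals* by 8.20 (standard error 0.31) and *Ghr* by 4.84 (standard error 0.17). The adjusted p of these 3 lay at 2.54e-07, 7.96e-07 and 6.27e-07 (the same edgeR test). *A1bg* was higher by 12.6 and *Cish* by 5.40 on the same scale, and *Socs2* by 2.51 (adjusted p = 2.93e-05). The libraries of a genotype share hamsters, so these p-values cover the spread between the 6 libraries only.

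*Prlr* and *Stat5b* were the genes whose call between tissues depended on the setting. *Prlr* was higher in liver by 2.17 (standard error 0.60, adjusted p = 0.0142 in the edgeR test) and was not called against SCN alone, where the difference was 1.18 (adjusted p = 0.182). *Stat5b* was higher by 0.75 (standard error 0.11, adjusted p = 0.000601) with TMM scaling and lower by library size, at −0.46 on the log2 scale, as it was in TPM. With library size in place of TMM the share of all genes called higher in liver was 14.4% and lower 60.2%, so the direction of a gene near 0 follows the scaling.

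*Gh1*, growth hormone, was listed at 0 in both liver libraries and at 0 to 0.908 TPM in cortex and SCN. *Pou1f1*, the pituitary transcription factor, had at most 0.450 TPM in any library. Prolactin was not listed by its symbol. *Sst*, whose peptide inhibits growth hormone release, had 197 to 506 TPM in the brain libraries and 0 in liver, and its log2 ratio was −0.29 in cortex and 0.47 in SCN. Of the 14 genes of that list in the tables, 0 reached a mean of 1 TPM in liver.

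Of 32 genes that carry or restrain the receptor signal, 31 were in the tables and all 31 had a mean of at least 1 TPM in liver. Only *Ptpn1* was higher past 0.58 and only *Irs1* lower, beside 4.75% and 10.5% of all liver genes, and 29 lay within that fold. *Ptpn1*, a tyrosine phosphatase, had 21.2 TPM in the wild-type liver and 41.9 TPM in the *duper* liver, a log2 ratio of 0.95 (95% interval 0.93 to 1.04), with −0.06 in cortex and 0.08 in SCN. *Irs1*, an adaptor of the insulin and IGF-1 receptors, had 8.09 and 4.52 TPM, giving a log2 ratio of −0.72. *Jak2* had 11.8 and 10.2 TPM. The most abundant of the list were *Stat3*, with 84.2 and 103 TPM, and *Jak1*, with 60.8 and 57.2 TPM. The median log2 ratio of the list was −0.10, the same as that of all liver genes.

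Of 17 further genes of the IGF system, 10 reached a mean of 1 TPM in liver. Of these 10, 1 was lower past 0.58 and 0 were higher, beside 10.5% and 4.75% of all liver genes. The lower one was *Insr*, the insulin receptor, with 37.4 TPM in the wild-type liver and 24.2 TPM in the *duper* liver, a log2 ratio of −0.61 (95% interval −0.66 to −0.59), which lies past the fold by less than the TMM shift of the median. *Igfbp4* was the most abundant binding protein transcript of liver, at 1278 and 1311 TPM. *Igfbp7* had 139 and 124 TPM. *Igf2*, the fetal growth factor, had 0.163 and 0.166 TPM in liver. In the SCN it had 64.0 TPM in the wild-type and 22.8 TPM in the *duper* library, a log2 ratio of −1.45.

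Among 26 liver genes known to respond to growth hormone, 19 were in the tables and 17 had a mean of at least 1 TPM in liver. Their median log2 ratio was −0.11, with 3 higher and 4 lower past 0.58, beside 4.75% and 10.5% of all liver genes. *Cyp17a1*, a steroid hydroxylase, had 113 TPM in the wild-type liver and 323 TPM in the *duper* liver, a log2 ratio of 1.51. *Trim24* had 5.14 and 10.3 TPM, giving a log2 ratio of 0.88, and *Cux2* had 8.14 and 13.4 TPM, giving a log2 ratio of 0.66. *Bcl6*, a repressor that opposes STAT5, had 7.80 and 3.73 TPM, giving a log2 ratio of −0.90. *Trim24* and *Cux2* are known as female-biased and *Bcl6* as male-biased transcripts of mouse liver. The sex bias of the other genes of this list is not given here, so nothing is read from these 3. Of the other lower genes, *Plin2* was at −0.80 and *Cidec* at −0.64, the latter past the fold by less than that shift. *Serpina1* and *Ces2* were the most abundant of the list, with log2 ratios of 0.30 and −0.28. *Cux2* and *Cidec* were named after their values were seen. Across the tissues 0 of the 17 tested genes of this list were called in the edgeR test, and 2 had an unadjusted p under 0.05, beside the 606 of 18275 among all genes.

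Transcripts of the acute phase and of macrophages were also higher in the *duper* liver. Of 12 acute-phase genes detected, 9 were higher past 0.58 and 1 was lower, beside 4.75% and 10.5% of all liver genes. The median log2 ratio of the 12 was 1.16. Their summed level was 28530 TPM in the wild-type and 53579 TPM in the *duper* library. *Lcn2*, *Apcs*, *Orm1* and *Itih4* had log2 ratios of 2.79, 1.95, 1.37 and 1.34. *Hp*, the most abundant, had 0.44. The lower one was *Il1rn*, an inhibitor of interleukin-1, at −0.85. Of 12 macrophage genes, 8 were higher past 0.58 and 0 lower, beside the same shares of all liver genes. The median of the 12 was 0.64, with sums of 808 and 1332 TPM, and the Kupffer cell marker *Clec4f* had 50.4 and 95.7 TPM. The part of these differences in the liver values of *Prlr*, *A1bg*, *Igfbp1* and *Ghr* was not tested.

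**Figure D5:**
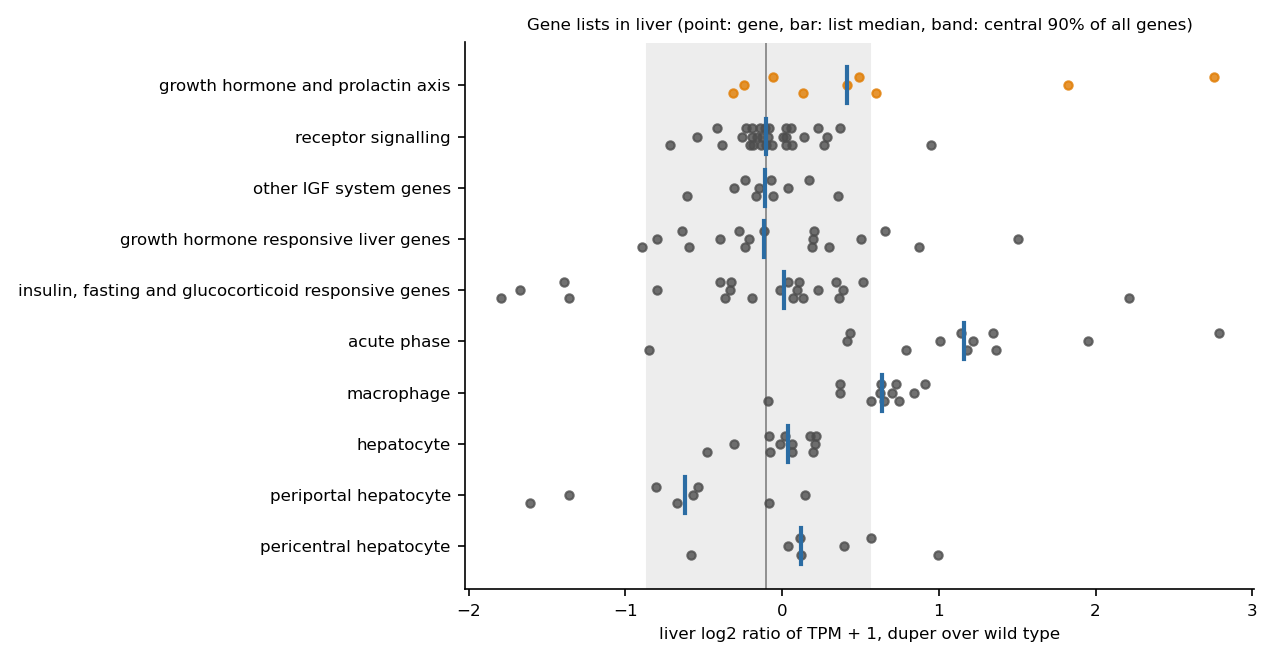
Liver log2 ratio of TPM + 1, *duper* over wild type (horizontal axis), for genes whose mean reached 1 TPM, in each of 10 lists. A point is a gene, the blue bar the list median, the grey line the median of all genes and the band their central 90%. The receptor signalling and IGF medians are −0.10 and −0.11, near that of all genes, whereas the acute-phase and macrophage medians are 1.16 and 0.64.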

How the data were processed

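RNA of liver, cortex and SCN was sequenced as paired reads from stranded mRNA libraries. The authors quantified transcripts with Kallisto (version not given in the sources used here) against the hamster reference MesAur2.0 and used tximport for the sums per gene. Deposited by the authors were estimated counts without normalization and TPM, both per gene and, for 67818 transcripts, per transcript, with transcript lengths. Merging of reads or mixing of RNA before deposit removed the spread between hamsters. All 67818 transcripts were matched by accession to the RefSeq annotation of BCM_Maur_2.0, which gave the transcripts of each gene, and its coordinates were not used. No sequence of these genes was analysed here.

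Groups came from the deposited labels. Estimated counts were rounded and tested in R 4.3.3 by edgeR 4.0.16 (scaling by TMM, filterByExpr by genotype, quasi-likelihood F test) with tissue and genotype as terms and 2 residual degrees of freedom. Standard errors were derived from the log2 fold change and F, as its size over the root of F. Alternatives were DESeq2 1.42.0, library size, no filter beyond 1 count, the likelihood ratio test, limma 3.58.1 on log2(TPM + 1), and leaving out each tissue. Within a tissue, TPM ratios used a pseudocount of 1 TPM and a minimum mean of 1 TPM. Alternatives were a pseudocount of 0.1 TPM, CPM after TMM, and TPM divided by the TMM factors. Intervals of 95% and floors of 3 counts (Python 3.11.15, scipy 1.17.1) treat estimated counts as counts. The test and the intervals were tested on simulated data.

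The genes and lists were chosen with earlier results of these data known. Named were the 10 genes and, of each list, the 2 most abundant in liver and at most the 4 largest ratios past 0.58, and for *Ghr* and *Prlr* the 3 genes with the nearest profile. *Pou1f1*, *Sst*, *Jak2*, *Igf2*, *Il1rn*, *Cux2*, *Cidec* and *Dusp1* were named beside that rule, after their values were seen. Some genes of the lists are not reported here by name.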

Additional observations from a re-analysis of the deposited data

Results flagged for a closer look

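The log2 ratio of *duper* over wild type pointed in opposite directions in liver and in a brain tissue for 4 genes, with counting intervals on both sides that excluded 0. The difference between tissues was not tested for any of them, since each ratio compares 1 library with 1 library. *Ghr* was 0.49 in cortex against −0.32 in liver. *Prlr* was −0.29 in SCN against 2.76 in liver. *Igfals* was −0.74 in SCN, from 63 and 6 counts, against 0.49 in liver. *Cish* was 1.10 in SCN, from 71 and 43 counts, against −0.25 in liver.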

How the results depend on the processing

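In liver 3 genes were higher past the fold and 0 lower, and with a threshold of 0.3 in place of 0.58 these counts were 5 and 1. With TMM scaling the median of all liver genes shifted by 0.10 (rescaled TPM) or 0.12 (CPM), and *Igfals* then passed 0.58 as a further gene. *Prlr* stayed between 2.76 and 2.91 and *A1bg* between 1.82 and 1.96 over these settings, and *Ghr* between −0.32 and −0.19. The genes lower past 0.58 in liver numbered 1477, and 839 by TMM-normalized CPM. Across tissues edgeR called 0 genes higher and 1 lower of all tested, DESeq2 26 and 16, the likelihood ratio test 54 and 37, no filter 19 and 29, limma 1 and 1, and the fits without the liver, SCN or cortex libraries 10 and 12, 11 and 23, and 0 and 2; none of the axis genes was among them. Between liver and brain, limma on log2(TPM + 1) called 2 genes lower in place of 1, *Stat5b* joining *Igfbp2*. *Stat5b* reversed to −0.81 in that setting and to −0.46 with library size. *Prlr* lost its call with library size (0.94) and against SCN alone, as did *Stat5b* against SCN alone (0.26). The share of short *Prlr* transcripts in liver moved to 57.7% in wild type and 59.9% in *duper* when counts replaced TPM, since a long transcript yields more reads. No pairing by hamster was possible, because the hamsters of a genotype were mixed or merged within each tissue before deposit. The tissue term of the fit sets the genotypes against each other within each tissue. Depth limits the brain values of *Cish*, *Igf1*, *Igfals* and *A1bg*, which rest on 6 to 80 counts.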

Other observations

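Genes that respond to insulin, fasting and glucocorticoids, among which *Igfbp1* is usually counted, were also looked at in liver. Of 22 with a mean of at least 1 TPM, 5 were lower past 0.58 and 1 was higher, beside 10.5% and 4.75% of all liver genes. The median log2 ratio of the 22 was 0.01. The lower genes were *Angptl4* at −1.79, *Cpt1a* at −1.67, *G6pc1* at −1.39, *Pck1* at −1.36 and *Dusp1* at −0.80. *Pck1*, the gluconeogenic carboxykinase, had 1304 TPM in the wild-type liver and 507 TPM in the *duper* liver, whereas *Tat*, also gluconeogenic, had 849 and 744 TPM. *Igfbp1* was higher in the library in which *Pck1* and *G6pc1* were lower.

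Periportal hepatocyte genes had a median log2 ratio of −0.62 in liver, with 4 of 8 lower past 0.58 and 0 higher. Pericentral genes had a median of 0.12, with 1 of 7 higher and 1 lower. Among all liver genes 10.5% were lower past 0.58 and 4.75% higher. Of 13 stellate and endothelial genes and 4 cholangiocyte genes, 0 lay past 0.58 in liver in either direction, with medians of −0.13 and 0.23. *Xist* and the Y-linked genes looked for were listed by 0 of 6 symbols, so the sex makeup of the libraries was not checked.

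Over the 6 libraries, the genes nearest to *Ghr* among 18557 in the shape of log2(TPM + 1) were *Pecr* (Euclidean distance 0.174), *Afmid* (0.349) and *LOC101842758* (0.372). Those nearest to *Prlr* were farther off, *LOC121136367* (1.33), *Bbox1* (1.36) and *LOC121139263* (1.46). *LOC121139263* had 409 TPM in the wild-type liver and 2438 TPM in the *duper* liver.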
